A study of Mus musculus with 58 samples.

Results

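This account follows 9 digestive enzyme genes, Cpa1, Cpb1, Cela1, Cela2a, Cela3b, Ctrb1, Try10, Amy2b and Cel, through single cells of the embryonic mouse pancreas. The 9 genes were given as a list, all 9 had a row in the table, and they are 9 of its 19699 gene rows. Wells were used where they held at least 2000 transcripts, not counting spike-ins, and at least 500 genes, which left 4318 wells on 15 plates. The assay was SORT-seq, in which single cells are sorted into 384-well plates and transcripts are counted at the 3′ end with unique molecular identifiers (UMIs), so a count does not grow with transcript length.

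The cells came from embryos of mothers that carry the MIP-GFP reporter (green fluorescent protein under control of the insulin promoter of the mouse), so every group shares this transgene. MIP-GFP wells were gated on green fluorescence, and live wells were picked from all cells that excluded a viability dye. Both sorts were made at E12.5 (experiments EP11 and EP18), E13.5 (EP12), E14.5 (EP14), E15.5 (EP10 and EP17) and E18.5 (EP16), and no label says whether embryos of an experiment were pooled or came from separate litters. Stage is that of the stage characteristic, since the titles of 12 MIP-GFP libraries give another stage. Live plates held between 1222633 and 8038960 transcripts in retained wells, with E12.5 and E15.5 each having a deep (EP11, EP10) and a shallow (EP18, EP17) experiment. The E18.5 live group has a second plate, coded P6, on which 292 of 301 retained wells passed a hormone gate and none an acinar gate. Its values are listed apart where levels are given by plate, and its wells are summed with the other E18.5 live plate in the tests between experiments. No column name was repeated, and plates share only the well numbers.

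Acinar cells make, store and release the enzymes that digest food in the gut, and most are made as inactive precursors. The cells arise from the tips of the branching pancreatic epithelium, where the factor Ptf1a, first shared by multipotent progenitors, later drives enzyme genes together with its partner Rbpjl. Cpa1 and Cpb1 encode carboxypeptidases, which trim amino acids from the end of a protein chain. Cpa1 also marks the early tip progenitors. Ctrb1 encodes a chymotrypsinogen, Try10 a trypsinogen, and Cela1, Cela2a and Cela3b encode elastase-type serine proteases. Amy2b encodes an amylase, which cuts starch, and Cel the bile salt-activated lipase.

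In the mm10 annotation Cpa1 lies on chromosome 6 from 30639218 to 30645363 and Try10 on chromosome 6 from 41354105 to 41357914. Cpb1 lies on chromosome 3 from 20248264 to 20275733 and Amy2b on chromosome 3 from 113147656 to 113156727. Cela2a (chromosome 4, 141814962 to 141826160) and Cela3b (chromosome 4, 137420999 to 137430540) also share a chromosome. Cela1 spans 100674421 to 100687921 on chromosome 15, Ctrb1 111686519 to 111691010 on chromosome 8, and Cel 28555795 to 28563403 on chromosome 2. Cpa1 and Try10 are on the plus strand and the other 7 on the minus strand, and counts refer to the whole gene. Amy2b is a pseudogene in the GENCODE set and protein coding in RefSeq. Its transcript matches that of Amy2a5 at 98.0% of 1561 aligned bases, and the Try10 transcript matches Try4 at 94.8% of 783 aligned bases and Try5, Prss1 and Prss2 at 90.3% to 93.1%. Reads of such copies can be counted for one another, so the values of Amy2b and Try10 may include their neighbours. The elastase transcripts matched each other at 70.0% to 76.9%.

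The sequence before the start of transcription is shown for 5 of the genes, because the trimeric PTF1 complex of Ptf1a and Rbpjl is known to bind a pair of motifs in enzyme gene promoters. The motifs are an E-box, CANNTG, which reads the same on both strands, and TTTCCC, which reads GGGAAA on the other strand. Capitals mark their matches in the 250 bases upstream of the RefSeq start, GRCm38.p6, each in the gene's own direction.
Cpa1, chr6:30638968-30639217, plus strand: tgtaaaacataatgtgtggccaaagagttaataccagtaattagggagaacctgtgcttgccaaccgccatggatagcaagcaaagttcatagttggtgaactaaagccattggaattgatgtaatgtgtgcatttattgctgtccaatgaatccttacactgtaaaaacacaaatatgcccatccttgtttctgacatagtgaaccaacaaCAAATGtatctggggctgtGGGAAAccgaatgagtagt
Ctrb1, chr8:111691011-111691260, minus strand: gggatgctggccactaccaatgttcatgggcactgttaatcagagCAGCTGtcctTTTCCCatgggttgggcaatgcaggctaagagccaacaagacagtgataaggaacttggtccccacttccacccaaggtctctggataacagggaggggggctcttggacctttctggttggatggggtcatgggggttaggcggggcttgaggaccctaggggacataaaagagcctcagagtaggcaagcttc
Cela1, chr15:100687921-100688170, minus strand: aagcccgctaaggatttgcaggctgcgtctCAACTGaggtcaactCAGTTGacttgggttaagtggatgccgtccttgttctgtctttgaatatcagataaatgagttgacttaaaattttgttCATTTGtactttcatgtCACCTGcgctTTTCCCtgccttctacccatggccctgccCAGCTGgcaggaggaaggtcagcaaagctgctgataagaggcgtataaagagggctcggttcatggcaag
Cpb1, chr3:20275734-20275983, minus strand: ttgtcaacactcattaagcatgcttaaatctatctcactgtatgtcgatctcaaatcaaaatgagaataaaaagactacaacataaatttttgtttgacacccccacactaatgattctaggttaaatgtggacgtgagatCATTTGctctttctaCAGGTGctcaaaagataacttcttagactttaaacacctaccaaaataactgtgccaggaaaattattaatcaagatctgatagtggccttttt
Cela2a, chr4:141826006-141826255, minus strand: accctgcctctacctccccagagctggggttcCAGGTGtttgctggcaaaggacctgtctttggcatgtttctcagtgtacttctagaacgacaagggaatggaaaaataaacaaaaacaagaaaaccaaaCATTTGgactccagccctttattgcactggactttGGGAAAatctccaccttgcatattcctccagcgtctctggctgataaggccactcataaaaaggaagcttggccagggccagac

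Promoters of 8 of the 9 genes were in the RefSeq table, and Try10 was not matched. All 8 held an E-box, as did 66.2% of 32851 mouse promoters of the same length. TTTCCC was found in 5 of the 8, against 21.9% of all promoters. An E-box within 25 bases of TTTCCC was found in 4 of the 8, those of Cpa1, Cela1, Ctrb1 and Cel, against 3.67% of all promoters. Amy2b, Cpb1 and Cela3b held no TTTCCC, and Cela2a held it farther from an E-box. A match is a description of these letters, and binding was not measured.

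On live plates the 9 genes fell into 3 groups by the stage at which their transcripts were first counted in appreciable numbers. Cpa1, Cela1 and Ctrb1 were present at E12.5, Cel and Amy2b crossed the set level at E13.5, and Cpb1, Cela2a, Cela3b and Try10 at E15.5. Onset was set as the first stage at which at least 1% of wells on every live plate of that stage held at least 2 transcripts of the gene, after each well had been thinned at random to 2000 transcripts so that depth was equal. Thinning left out 1 well, on the live plate of EP10.

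**Figure D1:**
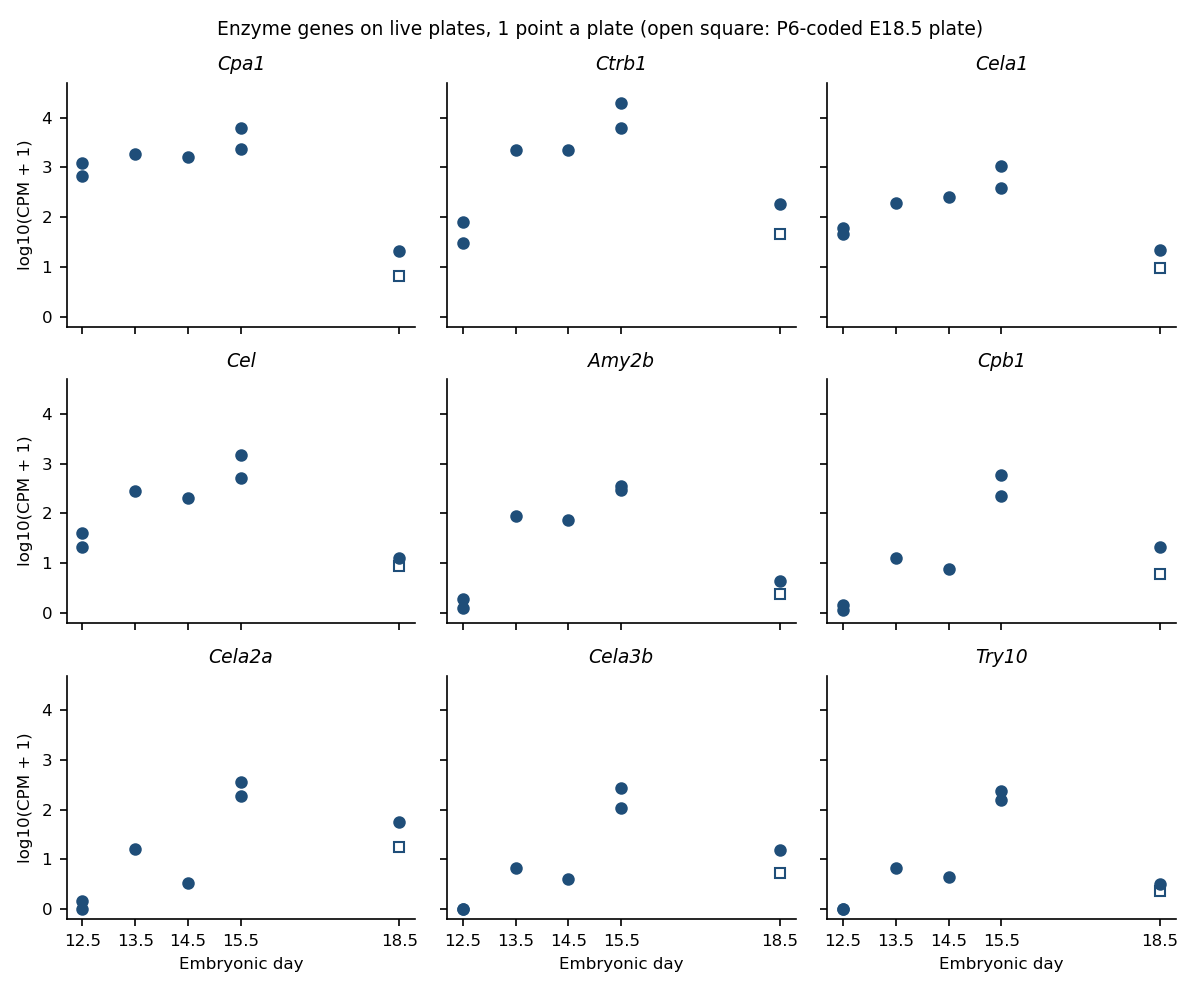
Level of each enzyme gene on the 8 live plates, as log10(CPM + 1) on the vertical axis against embryonic day. Each point is 1 plate. The E15.5 plates lie above the E12.5 plates for all 9 genes, and both E18.5 plates lie below the E15.5 plates for all 9 genes.

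Cpa1 was the most abundant member at E12.5, at 671 CPM (level scaled to the transcript total of the plate) in EP11 and 1221 in EP18. It had 1891 CPM at E13.5, 1613 at E14.5, then 2316 and 6365 on the E15.5 plates (EP10, EP17) and 20.2 at E18.5, with 5.61 on the P6-coded plate. The plates of E15.5 did not overlap those of E12.5, and the E13.5 and E14.5 plates lay between them.

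Ctrb1 had 28.8 and 79.7 CPM at E12.5, 2285 at E13.5, 2219 at E14.5, then 6309 and 20182 on the E15.5 plates and 179.7 at E18.5, with 43.8 on the P6-coded plate. It stood below Cpa1 on both E12.5 plates and above it on all other live plates. The step between E12.5 and E13.5 was the widest between neighbouring stages up to E15.5 for this gene, while E13.5 and E14.5, with 1 experiment each, differed little.

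Cel had 20.3 and 40.0 CPM at E12.5, 287 at E13.5, 199.8 at E14.5, then 525 and 1481 on the E15.5 plates and 11.6 at E18.5, with 7.71 on the P6-coded plate. Cela1 had 44.8 and 60.3 CPM at E12.5, 196 at E13.5, 254 at E14.5, then 388 and 1064 on the E15.5 plates and 20.7 at E18.5, with 8.65 on the P6-coded plate. Both genes were detected at every stage, and on each E12.5 plate Cela1 was above Cel. Amy2b had 0.25 and 0.892 CPM at E12.5, 86.4 at E13.5, 73.3 at E14.5, then 300.5 and 353 on the E15.5 plates and 3.30 at E18.5, with 1.44 on the P6-coded plate. Its E12.5 level rested on 4 transcripts in all, so Amy2b was counted near 0 there.

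Of the 4 later genes, Cpb1 had 0.125 and 0.446 CPM at E12.5, 12.0 at E13.5, 6.76 at E14.5, then 223 and 607 on the E15.5 plates and 20.3 at E18.5. Cela2a had 0 and 0.446 CPM at E12.5, 15.3 at E13.5, 2.43 at E14.5, then 187 and 361 on the E15.5 plates and 54.5 at E18.5. Cela2a was thereby the member with the highest E18.5 level after Ctrb1. Cela3b was at 0 in both E12.5 experiments and had 5.71 CPM at E13.5, 3.07 at E14.5, then 109 and 267 on the E15.5 plates and 14.6 at E18.5. Try10 was likewise at 0 at E12.5 and had 5.72 CPM at E13.5, 3.48 at E14.5, then 153 and 237 on the E15.5 plates and 2.20 at E18.5. On the P6-coded plate these 4 genes ranged from 1.28 (Try10) to 17.2 CPM (Cela2a). For all 4 the E13.5 and E14.5 plates stood far below both E15.5 plates.

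The pooled counts at E15.5 and E12.5 give the size of these differences, with intervals that cover counting error only. Try10 was at least 561-fold higher at E15.5 and Cela3b at least 445-fold, against a floor of 3 transcripts over both E12.5 plates. Cela2a rested on 1 transcript at E12.5, a ratio of 2169 (95% interval 389 to 85721), and Cpb1 on 2, a ratio of 1413 (391 to 11674). Amy2b differed by a ratio of 790 (308 to 2900), Ctrb1 by 207.5 (188 to 229), Cel by 26.9 (23.7 to 30.6), Cela1 by 10.0 (9.13 to 11.02) and Cpa1 by 3.63 (3.54 to 3.73). Between single plates of the 2 stages the ratio ran from 79.2 to 701 for Ctrb1, from 13.1 to 72.8 for Cel, from 6.43 to 23.7 for Cela1 and from 1.90 to 9.49 for Cpa1, each wider than the counting interval. It ran from 337 to 1412 for Amy2b, from 501 to 4868 for Cpb1 and, against EP18 alone, from 420.4 to 811 for Cela2a, each within the counting interval.

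Across experiments, edgeR's quasi-likelihood test on live sums, with Benjamini-Hochberg adjustment at 0.05, called 1 of the 9 genes at E15.5 against E12.5, and 1 gene in all, 0.0067% of 14935 tested. That gene was Amy2b, with a log2 difference of 9.69 ± 0.729 (SE; adjusted p = 0.0448). Amy2b, Cpb1, Cela2a, Cela3b and Try10 passed the filter on low counts only through stages after E12.5. A call of any of them, by edgeR or DESeq2, is therefore no support. Amy2b lost the call without EP12 (adjusted p = 0.0538), without EP14 (0.0525), without EP16 (0.0678), without the P6-coded plate (0.0670) and with scaling by library totals (0.0914), and over the alternatives its adjusted p by edgeR or DESeq2 ran from 1.08e-27 to 0.0914. The estimates of the other 8 ran from 2.38 for Cpa1 (adjusted p = 0.630) to 13.41 for Try10 (adjusted p = 0.0598), and those of Cela3b and Try10 depend on the small count added to zeros. DESeq2 called 9 of 9 (214 genes in all), and 1007 genes had an unadjusted p under 0.05 by edgeR. The fit drew its spread from 2 pairs of experiments of the same stage, and in the simulation of this comparison it called 56% of 4-fold and 100% of 32-fold changes. The simulation gave all genes the same fixed spread, not that of these experiments, so these shares are not the power of this comparison.

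In these sums fewer acinar cells and fewer transcripts per acinar cell cannot be told apart. The share of live wells in the acinar gate was 7.69% and 12.3% at E12.5, 27.7% at E13.5, 14.1% at E14.5, then 24.3% and 61.2% on the E15.5 plates, with 1.08% (3 wells) at E18.5. Over E12.5 to E18.5 a straight line in days called 0 of the 9 genes by edgeR, against 5.08% of 14138 genes tested that were called in either direction and 3.93% that rose. Their slopes ran from 0.16 log2 units per day for Cpa1 to 2.25 for Cpb1 (adjusted p = 0.212). DESeq2 called 5 of them, and 1785 of 14138 genes in all. Here too Amy2b, Cpb1, Cela2a, Cela3b and Try10 passed the filter only through the later stages.

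**Figure D2:**
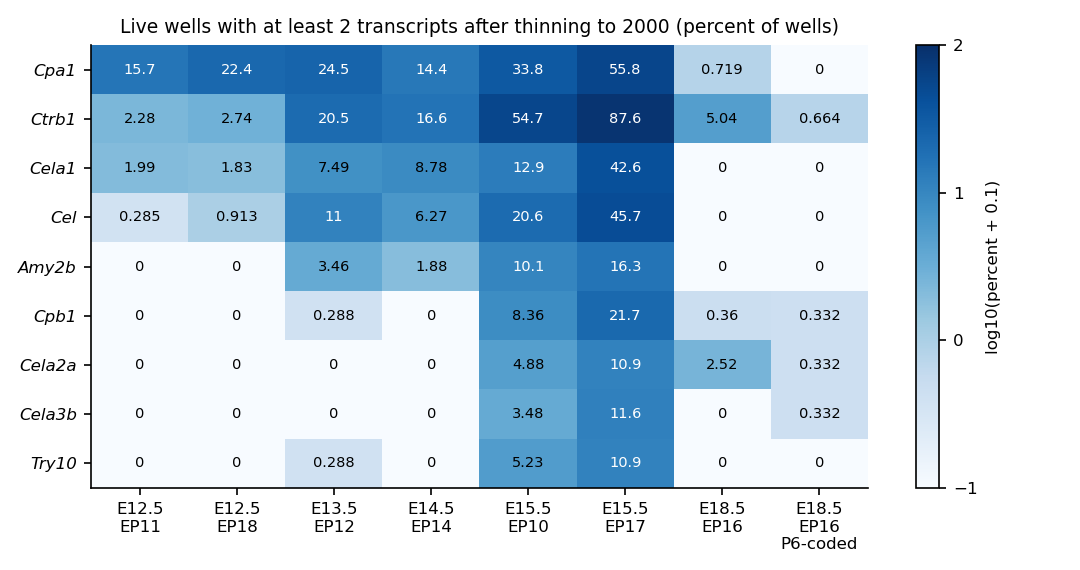
Share of live wells, in percent of wells, with at least 2 transcripts of each gene after thinning to 2000 transcripts, on the 8 live plates. Cpa1 was above 14% on all plates up to E15.5, Amy2b was at 0 at E12.5, and the lower 4 genes reached 3.48% or more on both E15.5 plates only.

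In thinned live wells the shares with at least 2 transcripts followed the same order. Cpa1 reached 2 transcripts in 15.7% and 22.4% of E12.5 wells, Ctrb1 in 2.28% and 2.74% and Cela1 in 1.99% and 1.83%. Cel stood just under the set level at E12.5, at 0.285% (1 well) and 0.913% (2 wells), and at 10.95% at E13.5. Amy2b was at 0 of 351 and 0 of 219 wells at E12.5, which allow shares of up to 0.855% and 1.37%, and at 3.46% at E13.5 and 1.88% at E14.5. Cpb1 and Try10 were each seen in 1 of 347 wells at E13.5 (0.288%), Cela2a and Cela3b in none of them, and all 4 in none of 319 at E14.5. At E15.5 Cpb1 reached 8.36% (EP10) and 21.7% (EP17), Try10 5.23% and 10.9%, Cela2a 4.88% and 10.9%, and Cela3b 3.48% and 11.6%.

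Under the 3 other onset rules tried, no gene came before a gene of an earlier group, but some boundaries moved. Asking for 1 transcript placed Cel at E12.5 and Cpb1 and Try10 at E13.5, and unthinned wells placed Cel at E12.5 and all 4 later genes at E13.5. With at least 5% of wells, Cela1 and Ctrb1 moved to E13.5 and Amy2b to E15.5, and Cela2a and Cela3b reached 5% on both plates of no stage. Acinar-gated wells held 94.7% to 100% of the transcripts of each of these 4 later genes at E13.5 and E14.5.

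The acinar gate used no member. It took wells outside the hormone and mesenchyme gates in which 23 other acinar genes, among them Clps, Spink3, Rbpjl and Ptf1a, summed to at least 0.2% of transcripts. It held 27 and 27 wells at E12.5, 96 at E13.5, 45 at E14.5, and 70 and 79 in the E15.5 experiments (EP10, EP17). At E15.5 these wells held 86.6% to 98.5% of each member's transcripts in EP10 and 98.1% to 99.5% in EP17. At E12.5 they held only 50.0% and 58.4% of the Cpa1 transcripts, and 57.8% and 62.1% of those of Cela1.

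**Figure D3:**
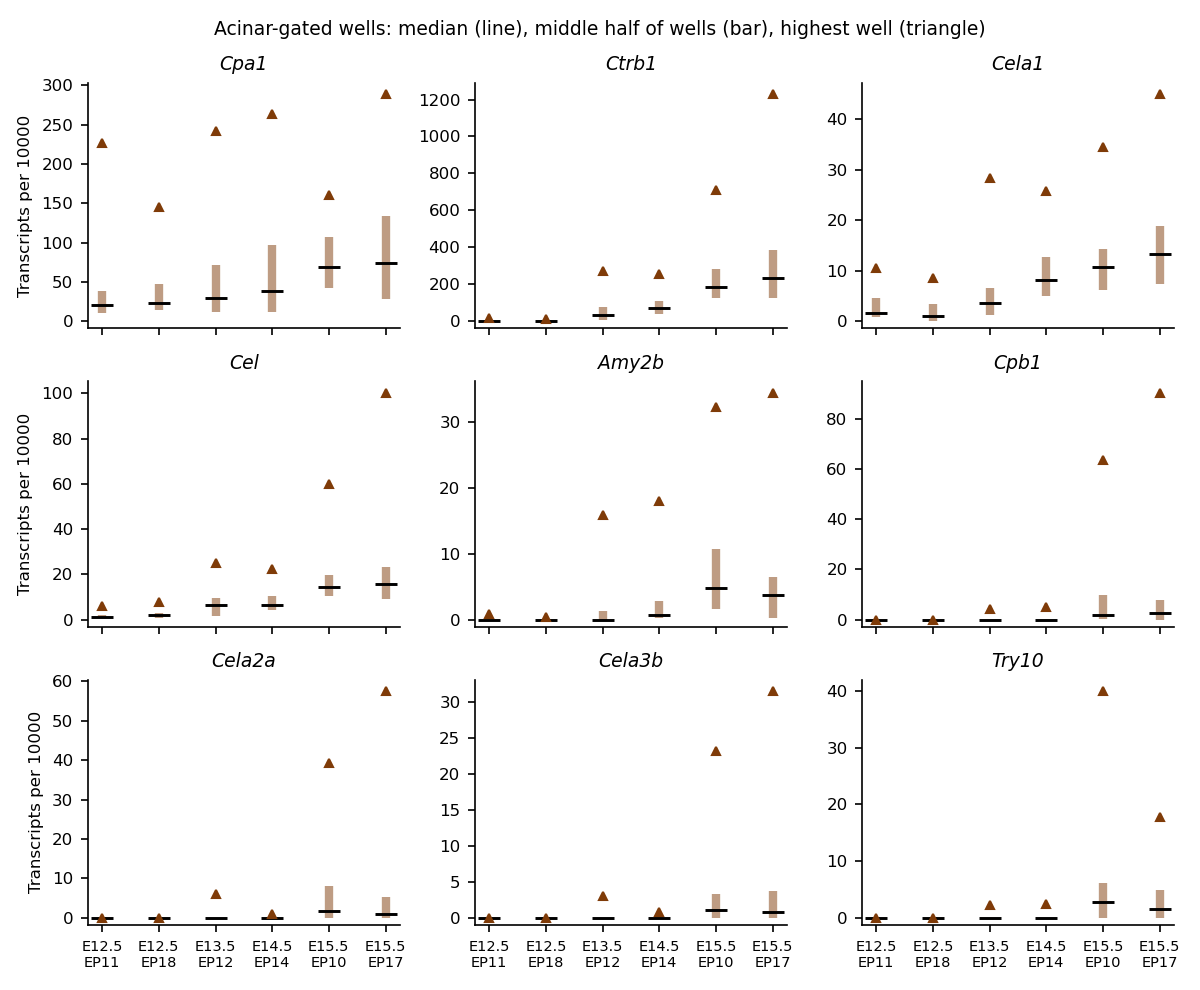
Transcripts per 10000 of each enzyme gene in acinar-gated wells of 6 live plates, by stage and experiment. The line is the median well, the bar the interquartile range of the wells and the triangle the highest well; each panel has its own scale starting at 0. Ctrb1 and Cel have medians above 0 on all 6 plates, while the lower 4 genes have medians above 0 on the E15.5 plates only.

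Within acinar-gated wells Ctrb1, Cel and Cela1 were called as rising with stage, and no test compared the rates of the genes. By edgeR on the 6 sums of experiments from E12.5 to E15.5, with stage in days, 8 of 9 genes rose, against 1.91% of 9393 genes tested that rose and 3.17% called in either direction. Of these 8, Try10, Cpb1, Cela3b, Cela2a and Amy2b passed the filter on low counts only through the later stages. They therefore had to differ, and their calls are no support. Amy2b was counted in 1 and 2 wells at E12.5, at 3.04 and 5.53 CPM (EP11, EP18). Of the other members, Ctrb1, Cel and Cela1 rose and Cpa1 was not called. The slopes in log2 units per day were 2.86 ± 0.312 for Try10 (adjusted p = 0.00262), 2.79 ± 0.323 for Cpb1 (adjusted p = 0.00306), 2.76 ± 0.317 for Cela3b and 2.45 ± 0.394 for Cela2a. These 4 were at 0 in all 54 acinar-gated wells of E12.5, so their slopes depend on the small count added to zeros. Ctrb1 rose by 1.97 ± 0.303 per day (adjusted p = 0.0101), Amy2b by 1.78 ± 0.320 (adjusted p = 0.0175), Cel by 1.15 ± 0.152 and Cela1 by 0.86 ± 0.111. Cpa1 had a slope of 0.37 ± 0.129 and was not called (adjusted p = 0.163). The median slope of the 9 genes, 1.97, includes the genes that had to differ. It is therefore no contrast to the median of 0.00185 over all genes tested.

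These calls depend on the stages that enter. With the gate at 0.1%, which brings in E18.5 with 10 wells, 0 of 9 genes were called, and 134 of 10515 in all. With the same gate without E18.5 (chosen after seeing the data) 8 were, and 356 of 9864 in all. Those 10 wells had a median of 107 per 10000 for a list of duct markers and 15.6 for the acinar list. With the gate at 0.5%, at which both E12.5 experiments drop out, 2 were called (Cela3b and Try10), and 38 of 9899 genes in all. At the 0.2% gate without E12.5, also chosen after seeing the data, it was 3 (Cpb1, Cela3b and Try10), and 52 of 10127 in all. Ctrb1, Cel and Cela1 were thus called in neither. Without EP11 the test called 6 of the 9 genes, and 89 of 10258 in all. Without EP10, EP12 or EP18 it called 7 members, with 113 of 8711, 185 of 8039 and 200 of 10322 in all. Only 8 members passed the filter without EP12. The 0.2% gate itself asks for a level of other enzyme genes, and acinar-gated wells differed in that level too: the median of the gate's list per 10000 transcripts was 30.6 and 33.7 at E12.5, 77.6 at E13.5, 108 at E14.5, and 206 and 287 in the E15.5 experiments.

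The levels per well show the same order. The median Ctrb1 level per 10000 transcripts was 0.422 and 2.21 at E12.5, 34.3 at E13.5, 69.7 at E14.5, and 185 and 236 in the E15.5 experiments. The median Cpa1 level was 20.3 and 23.7 at E12.5, 29.3 at E13.5, 38.1 at E14.5, and 68.5 and 74.6 in the E15.5 experiments. Ctrb1 exceeded Cpa1 in 1 of 27 and 0 of 27 wells at E12.5, 47 of 96 at E13.5, 28 of 45 at E14.5, and 66 of 70 and 70 of 79 at E15.5. Cpa1 took 85.7% and 84.1% of the summed member transcripts at E12.5 and 21.8% and 20.7% at E15.5, while Ctrb1 took 4.69% and 7.59% at E12.5 and 59.9% and 65.1% at E15.5. The median share of all 9 genes in a well's transcripts was 0.273% and 0.320% at E12.5, 0.793% at E13.5, 1.42% at E14.5, and 3.25% and 3.81% in the E15.5 experiments, with a highest well of 16.2% in EP17. On plates other than the P6-coded one the highest value that the UMI correction can give was 1597 transcripts. Ctrb1 reached it in 7 wells of EP10 and 2 of EP17, and Cpa1 in 1 well of EP14, so their top levels are understated there. The largest value of any gene on the P6-coded plate was 9601, above this limit.

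A gate on Ptf1a alone, at least 2 Ptf1a transcripts outside the hormone and mesenchyme gates, asks for no enzyme transcript. It held 63 and 39 wells at E12.5, 78 at E13.5, 44 at E14.5, and 49 and 59 in the E15.5 experiments. The median Ctrb1 level per 10000 transcripts was 0 and 0.519 at E12.5, 36.2 at E13.5, 65.0 at E14.5, and 216 and 263 in the E15.5 experiments. That of Cpa1 was 8.09 and 14.6 at E12.5, 31.1 at E13.5, 30.4 at E14.5, and 73.6 and 74.6 in the E15.5 experiments. None of these 102 E12.5 wells held a transcript of Cpb1, Cela2a, Cela3b or Try10, while at E15.5 each of the 4 was found in 85.7% to 91.8% of Ptf1a-gated wells in EP10 and 59.3% to 76.3% in EP17. The order of the members was therefore also seen with this gate, but Ptf1a is also in the acinar gate's list. From E13.5 the gates took mostly the same wells. Also acinar-gated were 76 of 78 Ptf1a-gated wells at E13.5, 42 of 44 at E14.5, 48 of 49 in EP10 and 59 of 59 in EP17. At E12.5 the gates differed: 49 of 63 and 19 of 39 Ptf1a-gated wells were below the acinar gate, and in them Cpa1 was found in 49 of 49 and 17 of 19 wells and Ctrb1 in 17 of 49 and 4 of 19.

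Single acinar-gated wells differed widely. At E12.5 a well held a median of 4 of the 9 genes, at E13.5 and E14.5 a median of 5, and at E15.5 a median of 9 in EP10 and 7 in EP17, where the median depth was 8466 transcripts against 35569 in EP10. All 9 genes were found in 38 of 70 wells of EP10 and 21 of 79 of EP17, in 5 of 96 at E13.5 and 2 of 45 at E14.5. At E13.5, 36 of 96 wells held at least 1 of Cpb1, Cela2a, Cela3b and Try10, and 35 of these 36 held Cpa1, Ctrb1, Cela1 and Cel as well, as did 83 of all 96 wells. At E14.5 it was 23 of 45 wells, and all 23 held those 4 genes, as did 41 of all 45.

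Wells with a late gene also held more Ctrb1. At E13.5 the median Ctrb1 level per 10000 was 78.9 in the wells with a late gene and 12.8 in those without, and at E14.5 it was 94.7 against 47.2. Depth moved with this split: the median was 31701 against 24508 transcripts at E13.5 and 47032 against 37638 at E14.5, and its part in the result was not tested.

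The spread between wells differed between the genes in a way that depends on the measure. The coefficient of variation (CV) of the level per 10000 at E15.5, in EP10 and EP17, was 57.9% and 80.0% for Cpa1, 60.0% and 74.0% for Ctrb1, 66.8% and 67.9% for Cela1 and 64.8% and 90.9% for Cel. It was 103% and 118% for Amy2b and between 128% and 195% for the 4 late genes, with Cpb1 at 178% and 192%. Low counts raise a CV by themselves. After thinning to 2000 transcripts the order was another: the variance was 16.4 and 31.5 times the mean for Ctrb1 and 5.23 and 13.53 times for Cpa1, where counting alone would give 1. It was 5.79 and 6.55 times for Cpb1, 4.73 and 4.64 for Cela2a and 3.31 and 3.79 for Cela3b, but 2.59 and 2.17 for Try10. Amy2b had 2.75 and 2.39, Cel 2.61 and 3.39, and Cela1 2.21 and 1.66. At a given CV this ratio rises with the mean, so it does not rank the genes apart from their level. The thinned means were 41.9 and 57.8 for Ctrb1, against 0.914 and 0.671 for Try10. The highest Cpb1 well of EP10 held 347 of its transcripts, while 13 of the 70 wells held 0.

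Members varied together across wells of a plate. The Pearson correlations of log2(1 + transcripts per 10000) over the 36 pairs had a median of 0.387 in EP12 (96 wells), 0.292 in EP14 (45 wells), 0.492 in EP10 (70 wells) and 0.449 in EP17 (79 wells), given as a description because the wells share a plate and differ in depth. The highest pairs were Ctrb1 with Cel in EP12 (0.831), Cela1 with Cel in EP14 (0.748) and EP10 (0.768), and Cela1 with Ctrb1 in EP17 (0.743). Among the late genes, Cela2a and Cela3b gave 0.705 in EP10 and 0.710 in EP17. The lowest pair of each of the 4 plates held Cpa1, with Cela3b in EP12 (0.0400) and EP10 (0.230), with Try10 in EP14 (-0.0125) and with Amy2b in EP17 (0.138). The correlation of a well's log enzyme share with its log depth lay between -0.065 in EP10 and 0.336 in EP11 over the 6 plates.

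The genes most like the members were sought among 7640 other genes, by the mean over the live plates of EP14, EP10 and EP17 of the correlation with the members' sum across all retained wells (319, 288 and 129). The acinar-gated and the other wells of a plate both enter it, so a gene that separates them scores high. Among the 10 highest were Pnliprp1 (0.918), Clps (0.891), Serpina6 (0.844), Gc (0.830), Spink3 (0.819), Serpini2 (0.818), Rbpjl (0.811), Cckar (0.809) and Gstm1 (0.796). Pnliprp1 and Clps encode a lipase-related protein and colipase, Spink3 a trypsin inhibitor and Cckar the cholecystokinin receptor that triggers enzyme release. Pnliprp1, Clps, Spink3 and Rbpjl belong to the list that set the acinar gate.

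Of 28 listed other acinar secretory genes, 25 had a row and 11 passed the filter on low counts in the acinar-gated fit. There 7 rose and none fell, with a median slope of 0.91 log2 units per day, against 1.91% of 9393 genes tested that rose. All of the 11 but Prss1 and Amy1 belong to the list that set the acinar gate, so their calls are no support. The 3 with the largest slopes were the trypsinogens Prss1 (3.50), Try5 (1.76) and Prss2 (1.50), and among the 3 with the smallest were Reg1 (0.77) and Amy1 (0.37, not called). Of the listed acinar factors 3 of 5 rose, of which Rbpjl and Bhlha15 also belong to the gate's list. Of the secretory pathway genes 2 of 5 rose, the disulfide isomerases Pdia2 (3.59) and P4hb (0.58). The slopes of Prss1 and Pdia2 were steeper than the 2.86 of Try10. Whether Prss1 and Pdia2 also passed the filter only through the later stages was not tested, so their calls are no support either. All 9 enzyme genes passed the filter in this fit, but Amy2b, Cpb1, Cela2a, Cela3b and Try10 only through the later stages.

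Hormone and mesenchymal wells of the same plates held enzyme transcripts at a low level, with the highest mean sums per well at E15.5. The hormone gate took wells in which insulin, Gcg, Sst, Ppy or Ghrl made up at least 1% of transcripts and 3 times any other hormone, and the mesenchyme gate wells with Col1a1, Col1a2 and Col3a1 at 0.5% or more. On the EP10 live plate Ctrb1 averaged 643 transcripts in 70 acinar-gated wells, against 16.6 in 14 hormone-gated and 15.3 in 125 mesenchyme-gated wells. On the EP17 live plate it averaged 307 in 79 acinar-gated, against 8.65 in 11 hormone-gated and 7.77 in 8 mesenchyme-gated wells. The 2 background classes thus stood at 2.58% and 2.38% of the acinar mean in EP10 and 2.82% and 2.53% in EP17. The EP17 values include 3 hormone-gated wells and 1 mesenchyme-gated well at or above the acinar gate's share.

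**Figure D4:**
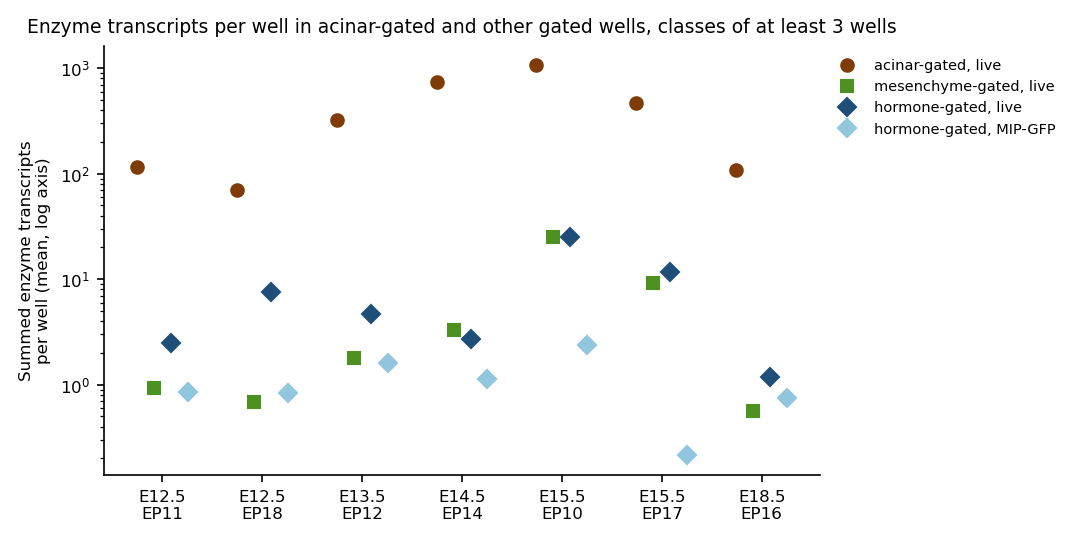
Mean summed transcripts of the 9 genes per well, on a log axis, for acinar-gated, mesenchyme-gated and hormone-gated wells of live plates and hormone-gated wells of MIP-GFP plates, by experiment, for classes of at least 3 wells. Acinar-gated wells lie highest in all 7 experiments, and hormone-gated wells of the live plate lie above those of the MIP-GFP plate in all 7.

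The number of wells with a Ctrb1 transcript shows how widely this background spread. In EP10 live wells, 100% of acinar-gated wells held at least 1, at a median depth of 35569 transcripts, against 98.4% of mesenchyme-gated and 100% of hormone-gated wells, at 20876 and 22313. After thinning the shares were 100%, against 66.9% and 57.1%. Cpa1 averaged 234 transcripts in acinar-gated wells of that plate, against 5.94 in mesenchyme-gated wells, 94.4% of which held it, and 5.02 in hormone-gated wells, all of which held it. The sum of the 9 genes in EP10 acinar-gated wells was 16.3 in the lowest, 843 in the median and 3436 in the highest well. It was 0, 18.3 and 91.0 in mesenchyme-gated and 7.05, 17.4 and 77.6 in hormone-gated wells, so the classes overlapped at the low end. Leaving out the 11 mesenchyme-gated wells at or above the acinar gate's share lowered the mean sum to 23.0, against 24.9 with them.

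At other stages the mesenchyme-gated wells held fewer enzyme transcripts on plates with more than 1 such well. Acinar-gated wells averaged 117 (EP11) and 70.6 (EP18) summed enzyme transcripts at E12.5, against 0.927 and 0.684 in mesenchyme-gated wells. At E13.5 and E14.5 acinar-gated wells averaged 325 and 739, against 1.79 and 3.34 in mesenchyme-gated wells. None of the 108 mesenchyme-gated wells of E12.5 held a Ctrb1 transcript, but Cpa1 was found in 54.7% and 38.6% of them. At E18.5 the sum averaged 0.564 in 137 mesenchyme-gated wells. Hormone-gated live wells averaged 2.51 (EP11) and 7.63 (EP18) at E12.5, 4.64 at E13.5 and 2.72 at E14.5, with 6 to 11 wells a plate. In the 11 such wells of EP18, Cpa1 averaged 7.08 transcripts, 11.9% of the acinar-gated mean, a higher share than the 2.14% and 1.31% of EP10 and EP17.

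The make-up of the background at E15.5 can be set beside that of the acinar-gated wells of the plate. In EP10, Ctrb1 took 59.9% of member transcripts in acinar-gated wells, against 61.4% in mesenchyme-gated and 65.2% in hormone-gated wells, and Cpa1 took 21.8%, against 23.9% and 19.8%. Cpb1 took 1.98% in acinar-gated wells, against 4.60% in mesenchyme-gated and 3.97% in hormone-gated wells. In EP17, Ctrb1 took 65.1% in acinar-gated wells, against 84.9% and 74.2%, and Cpa1 20.7%, against 6.85% and 10.96%, where the background classes held 62.2 and 95.2 Ctrb1 transcripts in all. No test of these shares was made.

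Plates sorted for MIP-GFP held few enzyme transcripts, and all 9 genes were lower on them than in live wells. By edgeR on sums per experiment and sort, with stage as covariate, 9 of 9 genes were lower in MIP-GFP wells, against 23.4% of 14773 genes tested that were lower and 42.6% called in either direction. Of the 9, Try10, Amy2b, Cela2a and Cela3b passed the filter on low counts only through the live sums, where they are high. Their calls are therefore no support. Ctrb1 averaged 30.5 ± 51.6 CPM in MIP-GFP sums and 4479 ± 7318 in live sums (SD, n = 7 each), with a log2 difference of -6.81 ± 1.02 (SE; adjusted p = 0.000333). Cpa1 averaged 28.2 ± 29.1 CPM in MIP-GFP sums and 2022 ± 2077 in live sums, with -6.02 ± 0.730 (adjusted p = 0.000114).

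Cela1 showed the smallest difference. It averaged 16.7 ± 13.9 CPM in MIP-GFP sums and 289.6 ± 368 in live sums, a log2 difference of -3.51 ± 0.829 (edgeR adjusted p = 0.00502). In EP18 it had 46.4 CPM in MIP-GFP and 59.9 in live wells, and in EP16 4.46 in MIP-GFP wells and 13.1 in the wells of both live plates, of which the P6-coded plate had 8.65 and the other 20.7. The largest difference was that of Try10, at -7.89 ± 1.14, with 0 CPM in 5 of 7 MIP-GFP sums. Try10 passed the filter only through the live sums, so its size is no support either. Of the other acinar secretory genes 16 of 21 tested were lower and 2 higher in MIP-GFP wells. Prss1 (-7.23), Reg1 (-6.51) and Ctrc (-6.43) differed most, Cpb2 (2.93) and Pla2g1b (2.73) were the 2 that were higher, and Amy1 (0.12, not called), Klk1 (-1.37, not called) and Zg16 (-1.51, not called) differed least. The acinar-gated share moved with this comparison, at 0 to 3 wells per MIP-GFP plate.

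**Figure D5:**
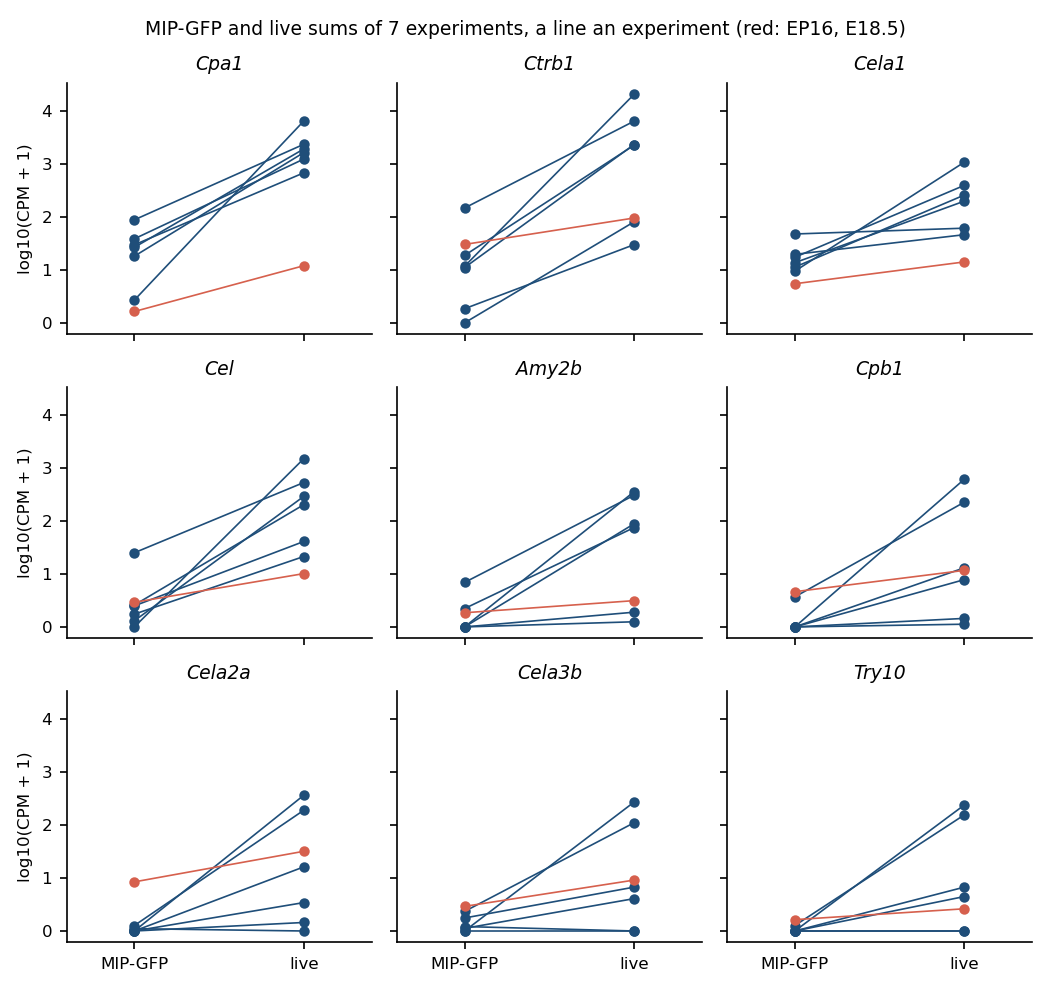
Level of each enzyme gene, as log10(CPM + 1), in MIP-GFP sums (left) and live sums (right), with a line for each of the 7 experiments; the E18.5 live sum holds both live plates. The live point lies higher for Cpa1, Ctrb1, Cela1, Cel, Amy2b and Cpb1 in all 7 experiments; Cela2a and Cela3b are at 0 in live wells of EP11 and above 0 in MIP-GFP wells of EP11.

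Hormone-gated wells also held more of some enzyme transcripts on live plates than on MIP-GFP plates of the same experiment. With the experiment as block, 2 of the 7 genes that passed the filter were higher on live plates, against 0.274% of 10930 genes tested that were higher and 0.329% called in either direction. Cpa1 had 201 and 9.88 CPM in EP10 (live, MIP-GFP), 48.9 and 13.47 in EP14, 4.85 and 0.662 in EP16, 174 and 2.04 in EP17, and 853 and 36.9 in EP18. The EP16 live sum held 328 wells, of which 292 were on the P6-coded plate, and the 36 hormone-gated wells of the other E18.5 live plate held no Cpa1 transcript. Cpa1 was higher in 5 of 5 experiments with that plate and in 4 of 5 without it, with a log2 difference of 3.91 ± 0.344 (edgeR adjusted p = 8.67e-08) with it and 3.89 (adjusted p = 2.86e-05) without it.

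Ctrb1 had 660.3 and 60.8 CPM in EP10, 35.9 and 14.4 in EP14, 40.1 and 29.3 in EP16, 1167 and 9.52 in EP17, and 11.1 and 0 in EP18. It was higher in 5 of 5, with a log2 difference of 2.89 ± 0.513 (edgeR adjusted p = 0.00504), and 3.00 without the P6-coded plate (adjusted p = 0.0327). A single well held 62.0% of the Cpa1 transcripts of the 11 hormone-gated live wells of EP18, and another 79.7% of the Ctrb1 transcripts of the 204 hormone-gated MIP-GFP wells of EP10. Ctrb1 lost the call without the block (adjusted p = 0.0918), with a hormone gate of 0.5% (adjusted p = 0.0739), with DESeq2 (adjusted p = 0.408) and with the authors' wells. Cpa1 lost it only with the authors' wells, where 2 experiments remained (adjusted p = 0.862).

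Cpb1 (3.64, adjusted p = 0.210), Cel (2.36, adjusted p = 0.118), Cela2a (2.26, adjusted p = 0.867), Amy2b (1.71) and Cela1 (0.77) were not called by edgeR, and Cela3b and Try10 did not pass the filter. Of the other acinar secretory genes tested here, 1 of 8 was higher, Pnliprp1 (2.20). The part of the acinar wells of the plate in these differences was not tested.

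The mix of Cela1, an elastase-type protease gene, and Cpa1 was compared between well classes by counting. In live acinar-gated wells Cela1 made up 6.34% of the summed Cela1 and Cpa1 transcripts at E12.5, 9.36% at E13.5, 13.7% at E14.5, then 14.7% in the E15.5 experiments (95% Wilson interval 14.3 to 15.1). In live mesenchyme-gated wells it made up 3.57% at E12.5, 6.45% at E13.5, 5.09% at E14.5, then 7.96% in the E15.5 experiments (6.28 to 10.04) and 54.5% at E18.5 (12 of Cela1 and 10 of Cpa1). In live hormone-gated wells there were 7 transcripts of Cela1 and 88 of Cpa1 at E12.5, 0 and 15 at E14.5, 16 and 84 in the E15.5 experiments (interval of the share 10.1% to 24.4%) and 42 and 32 (56.8% Cela1) at E18.5, where 292 of the 328 wells lay on the P6-coded plate. On MIP-GFP plates the share in hormone-gated wells was 44.3% at E12.5, 30.1% at E13.5, 39.7% at E14.5, then 63.2% in the E15.5 experiments (54.7 to 70.9) and 86.4% at E18.5 (19 of Cela1 and 3 of Cpa1). On those plates at E12.5, Cela1 was found in 24.6% (EP11) and 19.2% (EP18) of hormone-gated wells, while Ctrb1 was found in 1 of 256 and 0 of 99. Among hormone-gated MIP-GFP wells of E13.5, a single well held 40.0 of the 72 Cpa1 transcripts. At E15.5 the highest wells held 43.5 of the 84 Cela1 and 21.9 of the 49 Cpa1 transcripts. The intervals cover counting error only, and no test over experiments was made.

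At E18.5 only 3 wells of the live plates passed the acinar gate, and their markers go against that name. The list of duct markers, among them Spp1, Sox9 and Krt19, had a median of 109 transcripts per 10000 in them, against 27.3 for the acinar list, while in acinar-gated wells of E15.5 the duct list had 3.69 (EP10) and 2.40 (EP17) and the acinar list 206 and 287. The part of the duct markers in these values was not tested. The 3 wells averaged 55.3 transcripts of Ctrb1, 20.7 of Cela2a, 11.3 of Cpb1 and 6.42 of Cpa1. Cela2a took 19.0% of their member transcripts and Cpa1 5.90%, against 1.86% and 21.8% in EP10 and 1.17% and 20.7% in EP17. No test was made on them.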

How the data were processed

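Expected counts (transcripts per gene and well after correction of unique molecular identifiers for collisions, a unit read from the values) were deposited by the authors. BWA, Seurat and the build mm10 are named per the submitters' processing notes, with versions not given in the sources used here. Of 7296 columns, 5760 wells were matched to 54 of 58 libraries by experiment and sort, and 1536 columns were not used. The table's 89 spike-in rows were left out. Counts were summed per experiment (and sort) over at least 10 wells, rounded, and tested with edgeR 4.0.16 (R 4.3.3; quasi-likelihood, TMM, filterByExpr, Benjamini-Hochberg 0.05) over all genes passing the filter, with DESeq2 1.42.0 as an alternative. The experiment was the replicate, so p-values measure the spread between experiments, and no label says whether they came from separate litters. No doublet caller was run. The steps were tested on simulated data: 4-fold changes were called in 56% (live stage), 100% (live, per day), 69% (acinar-gated), 100% (MIP-GFP) and 93% (hormone-gated). In the live per-day and acinar-gated fits the change was 4-fold over 3 days. All genes were given the same fixed spread, not that of these experiments, so these shares are not the power of these comparisons. Wilson intervals and floors of 3 counts cover counting error only. Named genes were all 9 members, the 3 largest and 3 smallest changes of the acinar secretory list, and the 10 most similar genes. One gene that this rule names is not reported here. Members and lists were chosen with earlier results of these data known. Gates, thinning and onset rules are described beside their results. The alternatives covered normalization, filter, wells, gates, the block and each experiment left out; 6 alternatives were chosen after seeing the data. Python 3.11, numpy 2.4.6, pandas 2.3.3, scipy 1.17.1 and matplotlib 3.10.9 were used.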

Additional observations from a re-analysis of the deposited data

How the results depend on the processing

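The 9 enzyme genes were lower in MIP-GFP than in live wells under all alternatives run. With experiment as a replicate block 6929 genes were called there, against 6289 without, and 9 of 9 members both times. Try10, Amy2b, Cela2a and Cela3b passed the filter of both fits only through the live sums. Same-stage experiments correlated at 0.518 (EP11 and EP18) and 0.364 (EP10 and EP17) in their deviations. In hormone-gated wells the fit with no replicate block called 9 genes and 1 member, against 36 and 2 with the block. No filter gave 102 and 4, the authors' wells 64 and 0, the 0.5% hormone gate 21 and 1, and leaving out an experiment 8 to 46 and 2 to 3.

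For live wells at E15.5 against E12.5 (1 gene, 1 member), no filter called 370 and 8, DESeq2 214 and 9, the authors' wells 54 and 8, and wells below 5 times the plate median 4 and 4. Library totals, the P6-coded plate left out and E18.5 left out (chosen after seeing the data) each called 0 and 0. Without mesenchyme-gated wells (also chosen after seeing the data) 35 and 5 were called, and leaving out an experiment gave 0 to 221 and 0 to 8. For the live change per day (718 genes, 0 members), DESeq2 called 1785 and 5, the authors' wells 262 genes, the P6-coded plate left out 258, E18.5 left out 8, and leaving out an experiment 8 to 1412. The Cpa1 slope there was -0.17 without EP11 and -0.00012 without EP18, and ran from -0.48 without EP17 to 0.75 without EP16. For the acinar-gated change per day (298 genes, 8 members), no filter called 837 genes, DESeq2 494, the authors' wells 44 and 6 members, the 0.1% gate 134 and 0, the 0.5% gate 38 and 2, the 0.1% gate without E18.5 356 and 8, the 0.2% gate without E12.5 52 and 3 (both chosen after seeing the data), and leaving out an experiment 89 to 200 and 6 to 8. The Cpa1 slope there was -0.088 with the 0.1% gate. The cause was not tested.

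Onset stages were the same for 4 of 9 genes at 5% of wells, and for 4 of 9 without thinning. The median CV at E15.5 was 99.2% with a minimum of 5000 transcripts, against 111%. The summed background in hormone-gated wells was 29.3 with a 0.5% gate, against 18.53. Set against the plate's mean over all retained wells (chosen after seeing the data), Ctrb1 background was 7.18% in hormone-gated and 6.57% in mesenchyme-gated wells, against 2.70% and 2.45% of the acinar mean. Amy2b, Cpb1, Cela2a, Cela3b and Try10 were counted at or near 0 at E12.5, where depth limits their ratios. In the main fits by stage or day they passed the filter only through later stages, so their calls are no support.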
